A study of Mus musculus with 6 samples.

Results

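The genes described here are 10 mouse genes of antibody-producing cells: the switched heavy-chain constant genes Igha, Ighg1, Ighg2b, Ighg2c and Ighg3, the kappa light-chain constant gene Igkc, the joining chain gene Jchain, and the plasma cell genes Mzb1, Sdc1 and Prdm1. They were chosen by function and found by symbol, and all 10 were among the 56262 genes of the deposited table. Whole lungs of 3 untreated R/R animals and 3 untreated WT littermates, C57BL/6 mice aged 8 weeks, were profiled by bulk RNA-seq. R/R mice carry the RBM47 substitutions K329R and K332R on both alleles, made by CRISPR/Cas genome engineering, so every cell of the body carries them and neither substitution was measured alone. RBM47 is an RNA-binding protein, and the study asked how loss of its ISGylation, the attachment of the ubiquitin-like protein ISG15, changes immune gene expression in the lung. Gene counts do not show the altered codons, and the level of Rbm47 mRNA overlapped between the genotypes, from 32.7 to 34.1 CPM in R/R and from 28.8 to 34.4 CPM in WT. CPM is the count of a gene scaled to a common library size.

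Naive B cells make IgM and IgD from the heavy-chain constant genes Ighm and Ighd. Class switching replaces these by a downstream constant gene, so that the cell makes IgG, IgA or IgE, and B cells that mature into plasma cells then secrete large amounts of antibody. In mucosal tissues such as the airways, IgA is secreted mainly as a dimer held together by the J chain, which Jchain encodes and which also joins the units of secreted IgM.

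The J chain is bonded to a cysteine near the end of the secreted IgA and IgM heavy chains. The last coding bases of 3 secreted transcripts are shown because this is the part of the heavy chain that the J chain binds in IgA and IgM, and that IgG lacks. The sequences are given 5′ to 3′ from the GENCODE M21 annotation of GRCm38 and each covers 54 bases on the minus strand of chromosome 12, with capitals for the cysteine codon. The transcript Igha-201 ends its coding sequence at chr12:113258771-113258824, Ighm-201 at chr12:113420870-113420923 and Ighg2b-201 at chr12:113306392-113306445.
Igha: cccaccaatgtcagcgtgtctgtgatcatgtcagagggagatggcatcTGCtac
Ighm: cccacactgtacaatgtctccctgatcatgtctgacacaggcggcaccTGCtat
Ighg2b: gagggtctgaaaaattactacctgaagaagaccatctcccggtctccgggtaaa
Igha and Ighm each held 1 cysteine codon in this stretch, as the codon before the last. Ighg2b held 0.

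Library totals ran from 16501092 to 18141067 counted pairs, and 17120 genes had enough counts to be tested, among them 7 of the 10. Counts were scaled by TMM, an adjustment of library sizes, and R/R was compared with WT by edgeR's quasi-likelihood test, with a gene called at an adjusted p of 0.05. The lung genes on the check list were abundant in all 6 libraries, with Sftpc, a surfactant gene of alveolar type 2 cells, at 164819 counts or more. R/R replicate 3 had the fewest counts of Igha, Igkc and Jchain of all 6 lungs. WT replicate 1 lay among the R/R lungs for Igha and Jchain and apart from the other WT lungs.

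Of the 7 genes tested, 2 were called: Ighg2b and Igkc, both lower in R/R lungs. Over all genes tested 1.75% were called, and 1.10% were called as lower. At an unadjusted p of 0.05 edgeR passed 6 of the 7, against 14.2% of all genes: Igha, Ighg2b, Igkc, Jchain and Prdm1 with lower values and Sdc1 with higher values in R/R. The genotypes did not overlap in CPM for Ighg2b, Igkc and Sdc1, a pattern found in 18.7% of all genes tested. Ighg1, Ighg2c and Ighg3 did not pass the filter on low counts. The median log2 fold change was -0.90 over the 7 genes and 0.0045 over all genes tested. In bulk RNA a smaller number of antibody-secreting cells and less antibody RNA per cell cannot be told apart.

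**Figure D1:**
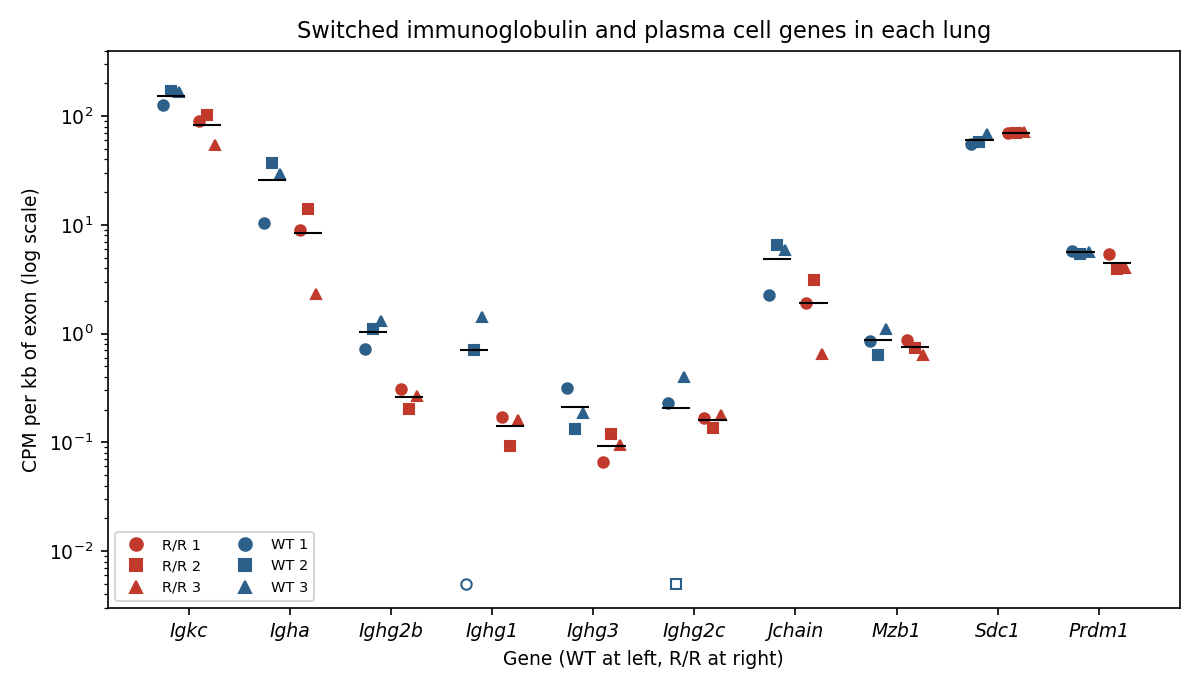
Level of each of the 10 genes in each lung, in CPM per kb of exon on a log axis, with WT lungs at left (blue), R/R lungs at right (red), a marker shape for each replicate number and a line at the group mean. Open symbols at the bottom stand for a count of 0 (Ighg1 in WT replicate 1 and Ighg2c in WT replicate 2). Igkc and Ighg2b were lower in every R/R lung than in any WT lung, while Igha and Jchain overlapped between the genotypes.

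Igha (ENSMUSG00000095079.6, chromosome 12, 113254830 to 113260236, minus strand) encodes the heavy-chain constant region of IgA. It was counted 435, 619 and 105 times in R/R replicates 1, 2 and 3 and 456, 1794 and 1343 times in WT replicates 1, 2 and 3. The last 2 WT lungs stood above all others, R/R replicate 3 stood below all others, and WT replicate 1 fell between R/R replicates 1 and 2 in CPM. Mean levels were 22.4 ± 15.5 CPM in R/R (SD, n = 3) and 68.4 ± 36.7 CPM in WT (SD, n = 3). The highest lung was 16.01 times the lowest in CPM, the widest spread of the tested genes among the 10. The log2 fold change was -1.61 (SE 0.49), with an edgeR adjusted p of 0.148, so the difference in Igha was not called. Without the filter on low counts Igha was called (edgeR adjusted p = 2.40e-72), as were Jchain, Prdm1 and Sdc1, in a fit that gave no weight to the spread of the single gene. With each lung left out in turn its log2 fold change ran from -2.17 to -1.17 and its edgeR adjusted p from 0.0842 to 0.389.

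Ighg2b (ENSMUSG00000076613.4, chromosome 12, 113302965 to 113307933, minus strand) encodes the constant region of IgG2b, a subclass that binds complement and Fc receptors. Its counts were 15, 9 and 12 in the R/R lungs and 32, 53 and 60 in the WT lungs, in the order of replicates 1, 2 and 3. Every R/R lung lay below every WT lung, including WT replicate 1, which was low for Igha. Ighg2b fell by 1.999 on the log2 scale (SE 0.33, edgeR adjusted p = 0.0158), from 2.79 ± 0.793 CPM in WT (SD, n = 3) to 0.692 ± 0.148 CPM in R/R (SD, n = 3). The fall rests on few counts per lung. It lost its call without R/R replicate 2 (edgeR adjusted p = 0.0738), without R/R replicate 3 (0.0525) and without WT replicate 2 (0.0509), and the range over all lungs left out was 0.0185 to 0.0738.

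Ighg1, which encodes the constant region of IgG1, was counted 8, 4 and 7 times in R/R and 0, 33 and 63 times in WT replicates 1, 2 and 3. The 2 higher WT lungs lay above all R/R lungs, and WT replicate 1 lay below them. Ighg3 had counts of 3, 5 and 4 in R/R against 13, 6 and 8 in WT, and Ighg2c, the C57BL/6 form of IgG2a/c, had 4, 3 and 4 against 5, 0 and 9. Ighg3 did not overlap between the genotypes, at counts close to the 3 that set the detection limit, and Ighg2c did overlap. For both the exact two-sided permutation test was limited to a smallest p of 0.1 by the 3 lungs per group, and it gave 0.1 for Ighg3 and 1 for Ighg2c. Ighe, the constant gene of IgE, had 0 counts in all 6 lungs, which allows up to 3 counts, or 0.166 to 0.182 CPM.

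Summed over Ighg1, Ighg2b, Ighg2c and Ighg3, IgG counts were 30, 21 and 27 in R/R replicates 1, 2 and 3 and 50, 92 and 140 in WT replicates 1, 2 and 3. The sums did not overlap between the genotypes, and averaged 1.504 ± 0.218 CPM in R/R and 5.44 ± 2.60 CPM in WT (SD, n = 3 each). IgG genes are similar in sequence: the coding sequences of Ighg2b and Ighg2c were 86.3% identical with an unbroken match of 78 bases, whereas the other IgG pairs were 76.1% to 78.5% identical and Igha was 59.3% to 63.6% identical to them. Reads that matched several places were not counted, so the split among IgG genes is less certain than their sum.

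Igkc (ENSMUSG00000076609.2, chromosome 6, 70726435 to 70726966, plus strand) encodes the constant region of the kappa light chain, which most mouse antibodies carry whatever their class. Its counts were 864, 919 and 489 in R/R replicates 1, 2 and 3 and 1099, 1653 and 1502 in WT replicates 1, 2 and 3. All R/R lungs were lower than all WT lungs, and R/R replicate 3 was again the lowest. Igkc fell by 0.90 on the log2 scale (SE 0.19, edgeR adjusted p = 0.0371), from 82.0 ± 13.3 CPM in WT to 43.9 ± 13.5 CPM in R/R (SD, n = 3 each). The call was lost with DESeq2 (adjusted p = 0.0719) and, in edgeR, when a lung was left out: adjusted p = 0.0593 without R/R replicate 1, 0.0540 without R/R replicate 2, 0.0506 without WT replicate 1 and 0.117 without WT replicate 2. Its adjusted p over all alternatives to edgeR's main fit ran from 5.45e-27 to 0.117. The lowest value came from the fit without the filter on low counts, which gave no weight to the spread of the single gene. The next lowest was 0.000442, with the edgeR exact test.

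Jchain (ENSMUSG00000067149.6, chromosome 5, 88519809 to 88527891, minus strand), the gene of the J chain, was counted 87, 131 and 28 times in R/R and 94, 297 and 254 times in WT, in the order of replicates 1, 2 and 3. The lungs held the same order as for Igha in CPM: WT replicates 2 and 3 were highest, R/R replicate 3 was lowest, and WT replicate 1 lay between R/R replicates 1 and 2. Means were 4.77 ± 3.09 CPM in R/R and 12.3 ± 5.78 CPM in WT (SD, n = 3 each). The log2 fold change of -1.37 (SE 0.44) was not called (edgeR adjusted p = 0.164). Leaving out single lungs moved it between -1.92 and -0.97, with edgeR adjusted p between 0.101 and 0.416.

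The ratio of Igha to Jchain counts stayed within a narrow range while both genes varied widely. It was 5, 4.73 and 3.75 in R/R replicates 1, 2 and 3 and 4.85, 6.04 and 5.29 in WT replicates 1, 2 and 3. The ratio overlapped between the genotypes, although Igha spanned 16.01-fold and Jchain 9.94-fold over the same lungs. Igkc spanned 3.17-fold, and its ratio to Jchain went from 5.57 in WT replicate 2 to 17.5 in R/R replicate 3.

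**Figure D2:**
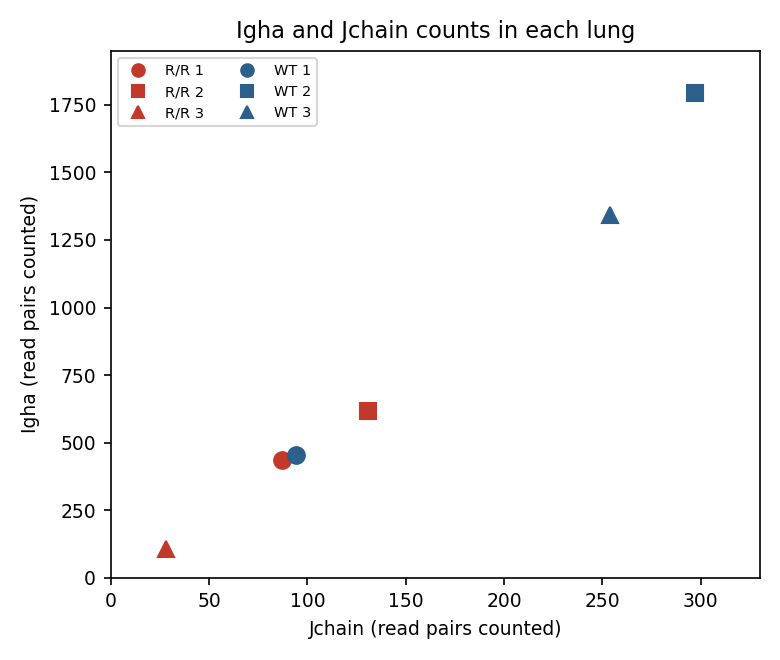
Read pairs counted on Igha against read pairs counted on Jchain in each of the 6 lungs, with R/R in red, WT in blue and a marker shape for each replicate number. WT replicates 2 and 3 lie at the upper right (1794 and 1343 Igha counts), R/R replicate 3 at the lower left (105), and WT replicate 1 (456) beside R/R replicates 1 and 2.

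Likeness of other genes was measured as the root mean square distance between log2 CPM profiles, each centred on its mean over the 6 lungs. Among 17070 genes outside the immunoglobulin loci the nearest to Igha was Jchain, at 0.21, against a median of 1.31 over all other genes tested. The next were 8030451A03Rik at 0.48 and Alb, the albumin gene, at 0.53. For Jchain the nearest were Alb (0.34), 8030451A03Rik (0.43) and A530064D06Rik (0.46), against a median of 1.11. These 3 genes were scarce, and Alb, for one, had 4 to 26 counts per lung.

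Mzb1 (ENSMUSG00000024353.5, chromosome 18, 35647267 to 35649367, minus strand) encodes an endoplasmic reticulum protein that helps B-lineage cells fold and secrete antibody. It was counted 19, 15 and 13 times in R/R and 17, 14 and 23 times in WT replicates 1, 2 and 3. The values overlapped, and the lungs differed by at most 1.76-fold in CPM. The log2 fold change was -0.21 (SE 0.34, edgeR adjusted p = 0.852), and without WT replicate 3 it was 0.011. Exons of Mzb1 overlap those of Spata24 on the same strand, and pairs in the shared part were counted for neither gene. The genes nearest to Mzb1 in profile were Sirpb1a (0.066), Mesp2 (0.073) and Gm15772 (0.074), against a median of 0.31.

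Prdm1 (ENSMUSG00000038151.13, chromosome 10, 44437177 to 44528501, minus strand) encodes BLIMP-1, the transcription factor that drives plasma cell differentiation and also acts in T cells and other lineages. Its counts were 543, 367 and 377 in R/R and 527, 541 and 540 in WT replicates 1, 2 and 3. R/R replicates 2 and 3 were below the WT lungs, and R/R replicate 1 was at 30.1 CPM, within the WT values of 29.9 to 32.0 CPM. The log2 fold change was -0.33 (SE 0.12, edgeR adjusted p = 0.206). Prdm1 was called without R/R replicate 1 (edgeR adjusted p = 0.0262), and left-out lungs gave 0.0262 to 0.489.

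Sdc1 (ENSMUSG00000020592.14, chromosome 12, 8771323 to 8793715, plus strand) encodes syndecan-1 (CD138), which marks plasma cells and is also abundant on epithelial cells. It was counted 4838, 4452 and 4635 times in R/R and 3479, 4014 and 4423 times in WT replicates 1, 2 and 3. It was the only one of the 7 tested genes with a positive log2 fold change, and every R/R lung was above every WT lung in CPM. Means were 269 ± 3.48 CPM in R/R and 231 ± 25.1 CPM in WT (SD, n = 3 each), a log2 fold change of 0.22 (SE 0.07) that was not called (edgeR adjusted p = 0.179). It was called without WT replicate 3 (edgeR adjusted p = 0.0172), and left-out lungs gave 0.0172 to 0.523.

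Compared per kb of exon, Igkc was the most abundant of the 10 genes in both genotypes, at a mean of 154 CPM per kb in WT and 82.5 CPM per kb in R/R. In WT lungs Sdc1 (60.5 CPM per kb), Igha (25.7), Prdm1 (5.59) and Jchain (4.90) followed, with Prdm1 and Jchain overlapping over the lungs. Ighg2b (1.04), Mzb1 (0.865), Ighg1 (0.709), Ighg3 (0.211) and Ighg2c (0.209) were the lowest in WT, and each overlapped its neighbour. In R/R lungs Igkc and Sdc1 (70.7 CPM per kb) overlapped, as did Igha (8.41) and Prdm1 (4.44), and Mzb1 (0.745) stood above all IgG genes. The lengths include exons of the membrane forms and untranslated parts, so a level per kb is an average over the whole gene model.

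**Figure D3:**
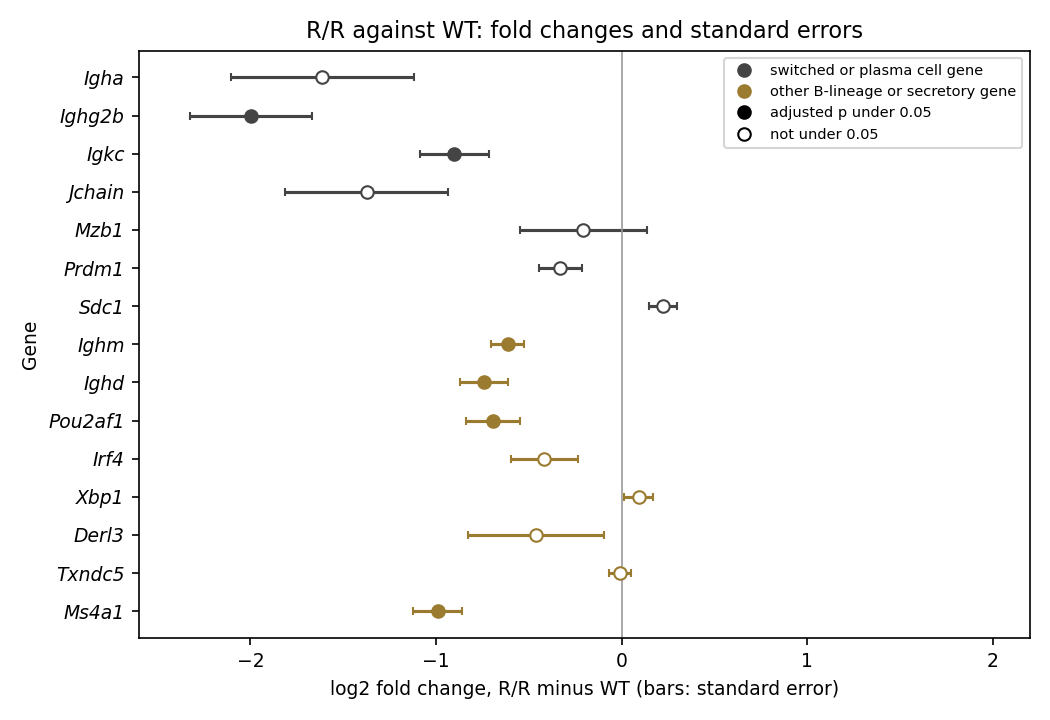
Log2 fold change of R/R against WT with its standard error for the 7 tested genes (grey) and for 8 other B-lineage or secretory genes (ochre). Filled points passed an adjusted p of 0.05 in edgeR's quasi-likelihood test. Ighg2b (-1.999) and Igkc (-0.90) are filled, Igha (-1.61, SE 0.49) and Jchain (-1.37, SE 0.44) have the widest bars, and Sdc1 (0.22) and Xbp1 (0.09) lie to the right of 0.

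The unswitched constant genes were also lower in R/R lungs. Ighm was counted 1577, 1518 and 1218 times in R/R and 2270, 2155 and 2152 times in WT, and fell by 0.61 on the log2 scale (SE 0.09, edgeR adjusted p = 0.00893). Ighd had 670, 499 and 429 counts in R/R and 969, 826 and 858 in WT, and fell by 0.74 (SE 0.13, edgeR adjusted p = 0.0202). Ighm was called with every lung left out, whereas Ighd lost its call when R/R replicates 2 or 3, or the first WT lung, were left out (edgeR adjusted p over left-out lungs 0.00637 to 0.0981). Of the 5 tested genes on the list of unswitched heavy and lambda light chains, all 5 had negative values and these 2 were called. Iglc1 had the lowest value of the list (-0.82, edgeR adjusted p = 0.228) and Iglc3 the highest (-0.37, edgeR adjusted p = 0.539). WT replicate 1, low for Igha and Jchain, had the highest Ighm and Ighd levels of all lungs, at 138 and 58.9 CPM.

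The heavy-chain counts were also described as a composition. Switched genes (Igha and the 4 IgG genes) made up 17.1% (95% Wilson interval 15.8 to 18.6), 24.1% (22.5 to 25.7) and 7.42% (6.29 to 8.73) of all heavy-chain constant counts in R/R replicates 1, 2 and 3. In WT replicates 1, 2 and 3 they made up 13.5% (12.5 to 14.6), 38.8% (37.4 to 40.1) and 33.0% (31.6 to 34.4). WT replicate 1 fell within the R/R range, and the intervals, which cover counting error only, were narrow against the spread between lungs of 1 genotype. The mean share was 16.2% ± 8.37 in R/R and 28.4% ± 13.2 in WT (SD, n = 3 each), and the difference of -12.2 percentage points became -19.7 without WT replicate 1 and -7.04 without WT replicate 2. Igha was the main switched gene in every lung, and IgG made up between 3.28% and 20.5% of the switched counts, the highest share being that of R/R replicate 3.

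Kappa made up a similar share of light-chain constant counts in every lung. Igkc gave 81.5%, 79.8% and 82.9% of the counts on Igkc, Iglc1, Iglc2, Iglc3 and Iglc4 in R/R replicates 1, 2 and 3, and 80.8%, 85.5% and 84.5% in WT replicates 1, 2 and 3. The shares overlapped between the genotypes and averaged 81.4% ± 1.56 in R/R and 83.6% ± 2.46 in WT (SD, n = 3 each). The ratio of Ighd to Ighm counts was likewise similar, between 0.329 and 0.427 over the 6 lungs.

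**Figure D4:**
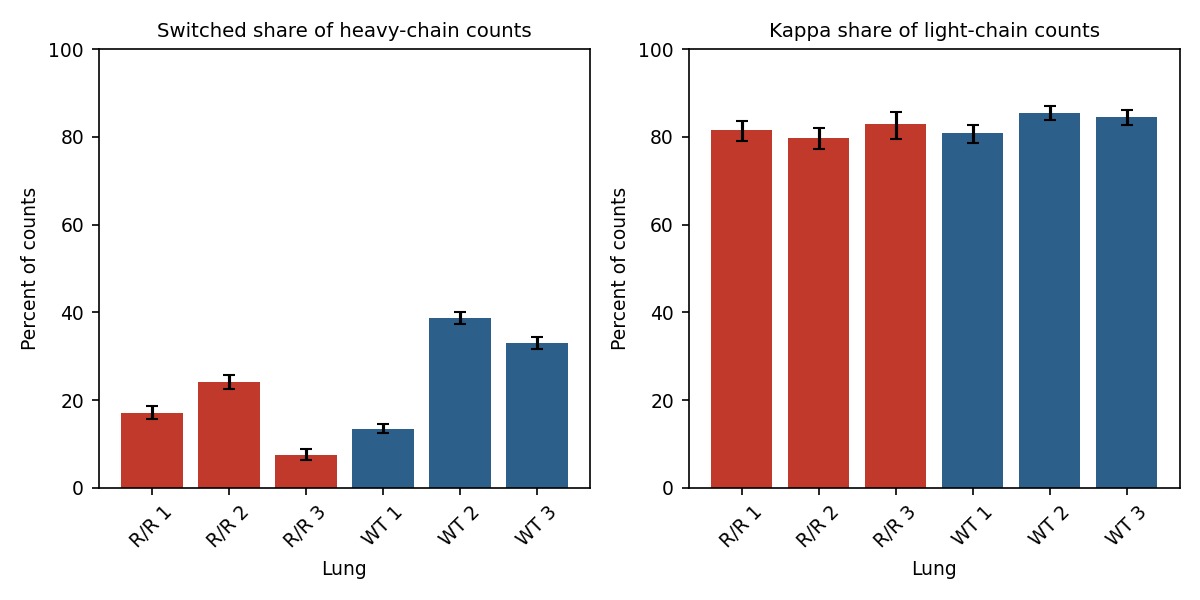
Share of switched genes among heavy-chain constant counts (left) and of kappa among light-chain constant counts (right) in each lung, as percent of counts, with 95% Wilson intervals for counting error. The switched share runs from 7.42% to 38.8% and overlaps between R/R (red) and WT (blue), and the kappa share stays between 79.8% and 85.5%.

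Variable (V) segments, which encode the antigen-binding end of each antibody chain, give a readout of immunoglobulin RNA from other parts of the transcripts. Summed over 348 V segments, counts were 934, 1022 and 593 in R/R replicates 1, 2 and 3 and 1194, 2059 and 1771 in WT replicates 1, 2 and 3. The sums did not overlap, R/R replicate 3 was the lowest and WT replicate 1 the lowest of the WT lungs. In CPM they averaged 49.3 ± 13.3 in R/R and 96.6 ± 21.5 in WT (SD, n = 3 each). Heavy-chain V segments gave 379, 380 and 209 counts in R/R and 412, 870 and 733 in WT, and kappa V segments gave 491, 548 and 335 in R/R and 687, 1031 and 941 in WT. Neither class overlapped between the genotypes.

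Single V segments were thinly covered: 36 passed the filter, 35 of them with a negative log2 fold change, and 0 were called by edgeR's quasi-likelihood test, with 16 at an unadjusted p of 0.05. DESeq2 and limma-voom called 0 and the edgeR exact test called 4. More segments reached 10 counts in WT lungs (37 to 62 per lung) than in R/R lungs (16 to 36). A segment could thus pass the filter through the WT lungs alone, and the direction among the 36 is partly set by the filter. Without the filter on low counts 176 of 221 segments had negative values, and with the filter of 1 CPM 18 of 18. The most abundant heavy-chain segments were Ighv1-26, Ighv9-3 and Ighv1-53, and the most abundant kappa segments were Igkv1-117, Igkv1-110 and Igkv10-96. Ighv9-3 was counted 23, 19 and 4 times in R/R and 17, 71 and 25 times in WT, so WT replicate 2 alone was high. Ighv1-26 had 23, 33 and 19 counts in R/R and 27, 48 and 53 in WT. Of the 136 segments with 10 or more counts in total, 48 had their highest CPM in WT replicate 2, 40 in WT replicate 3 and 22 in WT replicate 1, against 13, 9 and 4 in R/R replicates 1, 2 and 3. The leading heavy-chain segment took 6.07% to 9.09% of heavy-chain V counts in each lung, with overlap between the genotypes, so no single segment made up most of the counts of any lung. V segments are similar to one another, and reads shared between them were not counted.

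**Figure D5:**
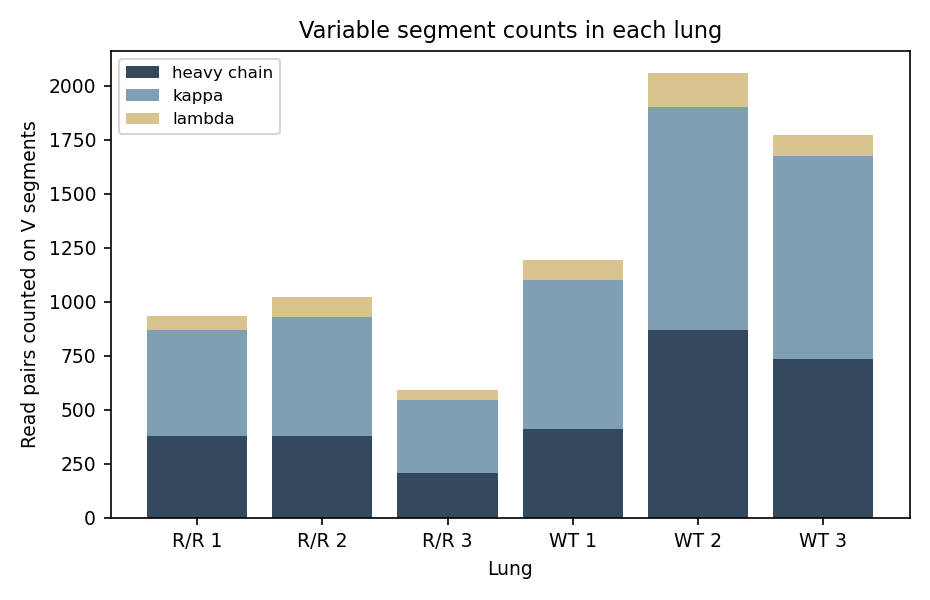
Read pairs counted on variable segments in each lung, stacked by heavy chain, kappa and lambda. The total runs from 593 to 1022 in the R/R lungs and from 1194 to 2059 in the WT lungs.

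Most other plasma cell and secretory genes were not called. Of 19 tested genes on this list, 11 had negative and 8 positive values, with a median log2 fold change of -0.10, and 1 was called. That gene was Pou2af1, a coactivator of immunoglobulin transcription found in B cells as well as plasma cells, which had 165, 165 and 124 counts in R/R against 238, 287 and 209 in WT (log2 fold change -0.69, SE 0.15, edgeR adjusted p = 0.0395). With single lungs left out it stayed called in 1 of 6 comparisons, that without WT replicate 3, and its edgeR adjusted p ran from 0.0132 to 0.146. The highest value was that of Fkbp11, a folding enzyme of secretory cells, at 0.36 (edgeR adjusted p = 0.386). Xbp1, the transcription factor of the secretory program, was at 0.09 (edgeR adjusted p = 0.663), with 3521 to 4222 counts in all lungs. Irf4, needed for plasma cell formation, was at -0.42 (edgeR adjusted p = 0.321). Derl3, which acts in the disposal of misfolded secretory proteins, was at -0.46 (edgeR adjusted p = 0.639), and Tnfrsf17, the plasma cell receptor BCMA, had only 2 to 7 counts per lung and was not tested. Xbp1 and most folding genes are used by many secretory cells of the lung.

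Class switching cuts the DNA of the heavy-chain locus and joins the ends by DNA repair. Of 9 tested switching and repair genes 0 were called by edgeR, DESeq2 or limma-voom, and 1 passed an unadjusted p of 0.05 in edgeR. Their values ran from -0.15 for Nhej1 to 0.28 for Lig4, both DNA end-joining genes. Among the signals that induce switching, Cd40, the receptor of T cell help, was lower in R/R (-0.38, SE 0.08, edgeR adjusted p = 0.0444). Tnfsf13b, which encodes the B cell survival factor BAFF, was higher (0.61, SE 0.10, edgeR adjusted p = 0.0165). Both calls were lost when any of R/R replicates 2 and 3 and WT replicates 1 and 2 was left out, and that of Cd40 also without R/R replicate 1, with limma-voom (adjusted p = 0.0528) and with the replicate block (edgeR adjusted p = 0.0519). Over left-out lungs the edgeR adjusted p ran from 0.0227 to 0.179 for Cd40 and from 0.00299 to 0.0625 for Tnfsf13b. Of the 5 tested signals these 2 were called, and Tnfsf13, which encodes APRIL, was at 0.12 (edgeR adjusted p = 0.836).

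Genes that carry antibodies across cells or bind them were not called by edgeR. Of 9 tested, 1 passed an unadjusted p of 0.05, 0 were called by limma-voom and 1 by DESeq2, and the median log2 fold change was -0.03. Pigr, the epithelial receptor that exports dimeric IgA and IgM bound to the J chain, had 262, 405 and 515 counts in R/R and 269, 340 and 603 in WT, at -0.03 (SE 0.28, edgeR adjusted p = 0.980). Fcmr, the IgM receptor of B cells, had the lowest value (-0.58, edgeR adjusted p = 0.147), and Fcgr3, an IgG receptor of myeloid cells, the highest (0.18, edgeR adjusted p = 0.479). Among 7 tested homing genes, Cxcl12, a chemokine that retains plasma cells in their niches, fell by 0.74 on the log2 scale (SE 0.11, edgeR adjusted p = 0.0104). Itga4, a chain of the integrins by which lymphocytes attach to vessels and stroma, fell by 0.41 (SE 0.06, edgeR adjusted p = 0.00893), with 1085 to 1237 counts in R/R and 1499 to 1646 in WT. Ccr10, the receptor of IgA-producing cells for mucosal chemokines, had 19 to 26 counts in R/R and 21 to 33 in WT (-0.30, edgeR adjusted p = 0.725).

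B cell genes were also lower in R/R lungs. Of 15 genes of B cell identity, all had negative values and 8 were called, among them Cd79a, Ms4a1, Pax5, Bach2, Spib, Fcer2a and Cd37. Their summed level was 238 to 288 CPM in R/R and 379 to 430 CPM in WT, with a median log2 fold change of -0.58. Spib, a transcription factor of B cells, had the lowest value (-1.08, SE 0.17, edgeR adjusted p = 0.0111), and Cr2, the complement receptor of B cells, the highest (-0.16, edgeR adjusted p = 0.780). The number called was between 3 and 10 with single lungs left out, the lowest without R/R replicate 2 and the highest without WT replicate 3. Ms4a1 and Bach2 stayed called in all 6 of these comparisons, Spib and Cd37 in 4, and Cd79a, Pax5 and Fcer2a in 2. Cd79a and Pax5 also lost their calls with limma-voom (adjusted p = 0.0511 and 0.0526), and Cd79a with the filter of 1 CPM. Unlike Igha and Jchain, the summed B cell level of WT replicate 1 was the highest of all lungs.

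Summed levels of T cell, red cell, epithelial and macrophage genes did not overlap between the genotypes either. Of 10 T cell genes all had negative values, 0 were called by edgeR's quasi-likelihood test or limma-voom, 3 by DESeq2 and 4 by the edgeR exact test. At an unadjusted p of 0.05 there were 6, with summed levels of 41.3 to 51.7 CPM in R/R and 61.2 to 84.0 CPM in WT. All 6 red cell genes had negative values, with sums of 1175 to 2219 CPM in R/R against 2425 to 3220 CPM in WT. Hba-a1 was called (-0.78, edgeR adjusted p = 0.0478), but not with DESeq2 (adjusted p = 0.0824), without TMM, with the filter of 1 CPM, or when any of R/R replicates 1 and 2 and WT replicates 1 and 2 was left out (edgeR adjusted p over left-out lungs 0.0192 to 0.169). Of 10 epithelial genes 9 had positive values, 0 were called by edgeR's quasi-likelihood test or limma-voom, and 2 by DESeq2 and by the edgeR exact test. At an unadjusted p of 0.05 there were 6, with sums of 2132 to 2197 CPM in R/R against 1838 to 2026 CPM in WT. Krt19, a keratin, had the highest value (0.35) and Cldn4, a tight junction gene, the lowest (-0.21). Of 8 macrophage genes 7 had positive values and Chil3 was called (0.68, edgeR adjusted p = 0.0233), with sums of 943 to 1057 CPM in R/R and 687 to 859 CPM in WT. Chil3 stayed called in 1 of 6 comparisons with a lung left out, that without WT replicate 3 (edgeR adjusted p over left-out lungs 0.000112 to 0.0973). Of 6 lymph node stroma genes 2 were tested and 0 were called by edgeR, DESeq2 or limma-voom, 0 also at an unadjusted p of 0.05, with sums of 3.65 to 9.15 CPM in R/R and 2.79 to 5.44 CPM in WT. Glycam1 was at 0 in all 6 lungs and Chst4 had 31 to 135 counts. Of 5 thymus genes 1, Themis, was tested, which passed an unadjusted p of 0.05 and was not called by edgeR, DESeq2 or limma-voom, with sums of 1.35 to 2.33 CPM in R/R and 2.48 to 3.40 CPM in WT that did not overlap. Rag2 was at 0 in all 6 lungs, Rag1 had 1, 0 and 1 counts in R/R and 7, 4 and 3 in WT, and Themis, also expressed by T cells outside the thymus, had 16 to 51 counts per lung. The part of these cell types in the values of Igha, Igkc, Ighg2b, Jchain and Sdc1 was not tested.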

How the data were processed

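Lungs of 3 R/R mice and 3 WT mice were compared, with groups and replicate numbers from the sample labels. The supplement describes biological replicates and littermates. HISAT2 2.1.0 was used by the authors to map reads of 150 bases to mm10 (GRCm38). Their deposited table holds raw counts from featureCounts 2.0.1 on GENCODE M25, unstranded, without pairs that matched several places or several genes. One of the 6 deposited columns is listed in the records as an estimated count, since the unit check could not parse the table's comment line. All 6 hold whole raw counts, and none was rounded. The labels name RNeasy columns and the supplement Trizol for extraction.

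Symbols came from GENCODE M21 (55141 of 56262 identifiers matched). In R 4.3.3, genes were kept by edgeR 4.0.16 filterByExpr (minimum count 10, total 15), scaled (TMM) and tested by glmQLFit with glmQLFTest, Benjamini-Hochberg adjusted over all genes tested. CPM use TMM-scaled library sizes. The SE of a log2 fold change is its size divided by the square root of F. Permutation used log2 CPM with a prior count of 0.5. Totals were 16815020 to 18071818 in R/R and 16501092 to 18141067 in WT, and 3 counts set the floor. The code was tested on simulated data.

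The genes and lists were chosen with earlier results of these data known. Named were the 10 genes, called genes and the highest and lowest value of each list, genes of a list described (some are not reported here), the 3 nearest profiles, and the 3 most abundant V segments per chain. Alternatives were DESeq2 1.42.0, the edgeR exact test, limma-voom (limma 3.58.1), other scalings and filters, a replicate block, immunoglobulin genes left out of library sizes, and each lung left out.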

Additional observations from a re-analysis of the deposited data

How the results depend on the processing

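Of the 10 genes, 2 were called in the main comparison, 0 with DESeq2 (where Ighg2b and Mzb1 received no adjusted p), 7 without the filter on low counts, and 0 to 3 with single lungs left out, 0 without R/R replicate 2 and 0 without WT replicate 2. Over all genes 300 were called in the main comparison, 541 with DESeq2, 630 with the edgeR exact test, 1109 without the filter and 65 to 621 with single lungs left out (65 without WT replicate 1, 621 without WT replicate 3). Without the filter the called genes included Igha, Jchain and Ighg1 (log2 fold change -2.30, edgeR adjusted p = 5.34e-06). That fit had infinite prior degrees of freedom, against 7.66 in the main fit, so the spread of a single gene between lungs carried no weight in it. Ighg1 passed the filter in 4 of the comparisons with a lung left out and was called in 1, without WT replicate 1 (edgeR adjusted p = 0.0262, and 0.372 to 0.515 in the other 3). Mzb1 turned from -0.21 to 0.011 without WT replicate 3, and left-out lungs gave -0.39 to 0.011. The cause was not tested for the other changes.

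Deviations from the group means of lungs with the same replicate number correlated at -0.01, -0.00 and -0.01. Those of lungs with different numbers correlated at -0.02 to 0.03, and 0 lungs correlated best with their own number. Correlations this small, from so few lungs, cannot show whether the numbers pair the lungs. With the replicate block 446 genes were called, against 300 in the main comparison, and 2 of the 10 were called in both. The switched share, the kappa share and the V segment sum kept their direction under every alternative run. Depth limits Ighg1, Ighg2c, Ighg3, Mzb1 (13 to 23 counts per lung) and single V segments.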

Other observations

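Genes of plasmacytoid dendritic cells, which share some transcripts with plasma cells, were described as a comparison with the plasma cell genes. Of 7 tested, 3 had negative and 4 positive values, 0 were called by edgeR, DESeq2 or limma-voom and 3 passed an unadjusted p of 0.05 in edgeR. Cox6a2 had the highest log2 fold change (0.52, edgeR adjusted p = 0.197), and Pacsin1 and Ly6d the lowest (both -0.57, edgeR adjusted p = 0.294 and 0.203). Siglech, a defining receptor of these cells, had 59 to 81 counts in R/R and 48 to 75 in WT (0.27, edgeR adjusted p = 0.632). The summed level of the list overlapped between the genotypes, at 361 to 386 CPM in R/R and 347 to 385 CPM in WT.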
